A study of Mus musculus with 16 samples.

Results

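T cells of subcutaneous KPC-Luc tumors were compared between mice given an anti-PD-1 antibody alone and mice given ANT008 alone, as 4 samples against 4 of the 16 in the series. The samples were chosen by treatment label and not by a measured value, though with earlier results of these data known. KPC-Luc is a luciferase-expressing line of mouse pancreatic ductal adenocarcinoma, and all hosts were young adult female C57BL/6 mice. The anti-PD-1 mice received 200 µg of anti-PD-1 every 3 days with a scrambled peptide at 10 µg every day. The ANT008 mice received 10 µg of ANT008, a peptide antagonist of the receptors for vasoactive intestinal peptide (VIP-R), every day, with 200 µg of isotype IgG every 3 days. Both schedules ran for 10 days, so each group carried 1 active agent and the inactive partner of the other. Implantation was under the skin and not in the pancreas. The sample labels describe magnetic isolation of T cells from each tumor by CD90.2, a surface protein of mouse T cells, while the study's methods name that step for another assay and for the receptor survey only the harvested tumors. Under either account CD4+ and CD8+ cells were read together.

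A T cell makes its receptor β chain (TCRβ) by cutting and joining 1 V, 1 D and 1 J gene segment. Bases are trimmed from the segment ends and others are added without a template, so the join, called the third complementarity-determining region (CDR3), differs between cells and is inherited by all daughters of a cell. The CDR3 lies over the antigen peptide in most complexes, and a frequent CDR3 marks a T cell that has divided. PD-1 is an inhibitory receptor of activated T cells, and anti-PD-1 blocks it. VIP is a neuropeptide that dampens T cell responses through its receptors. The comparison asked whether the 2 single agents left different repertoires of T cells in the tumor.

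Counts were of templates, the starting molecules that the sequencing service estimated for each 87-nucleotide rearrangement. Productive (in-frame) templates numbered 32193, 31598, 72588 and 7180 in anti-PD-1 mice 1 to 4, and 22679, 32935, 11537 and 20770 in ANT008 mice 1 to 4. A share resting on these depths has counting error only in its binomial interval, and PCR products without molecular tags are not independent molecules. Whether DNA or RNA was amplified could not be settled. If it was RNA, templates count transcripts rather than cells. The deposited cell numbers, estimated from input mass, ran from 408964 to 410940 in the 8 mice. Productive templates were 1.75% of that number in anti-PD-1 mouse 4 and 17.7% in anti-PD-1 mouse 3, with the other mice between. Which molecule or which account of the isolation these values go with was not tested. No expression was measured here, so the cells were known as T cells only through their rearranged Trb genes.

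Mice of both groups carried some of the same CDR3 proteins at high frequency. A clone is a nucleotide rearrangement in what follows, and a CDR3 pools all rearrangements that encode 1 amino acid sequence. Of 43996 productive CDR3s in the 8 mice, 2663 were found in both groups, which was 9.75% of those of the anti-PD-1 mice and 13.8% of those of the ANT008 mice. Only 10 were found in all 8 mice. A CDR3 of 15 residues, joined almost always from Trbv16 and Trbj2-7 and called the Trbv16 CDR3 here, was among the 50 most frequent CDR3s of 7 of the 8 mice. It held 0.960%, 1.37%, 1.56% and 0.265% of productive templates in anti-PD-1 mice 1 to 4, and 1.10%, 0.425%, 0.121% and 4.32% in ANT008 mice 1 to 4. The groups overlapped, and the most frequent mouse was ANT008 mouse 4. The 8 mice encoded it with 29 different rearrangements, and the most frequent one of each mouse took 6 different forms. They are printed because they show that 1 protein sequence was built by separate joins in separate mice. Each runs 5′ to 3′ from the codon of the first cysteine, without the last codon, with the inserted bases in capitals.
anti-PD-1 mouse 1: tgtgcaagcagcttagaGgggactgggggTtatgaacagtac
anti-PD-1 mouse 2: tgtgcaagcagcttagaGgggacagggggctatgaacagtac
anti-PD-1 mouse 3: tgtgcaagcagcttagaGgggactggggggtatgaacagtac
anti-PD-1 mouse 4: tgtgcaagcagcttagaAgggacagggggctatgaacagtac
ANT008 mouse 1: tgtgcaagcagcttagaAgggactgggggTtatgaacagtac
ANT008 mouse 2: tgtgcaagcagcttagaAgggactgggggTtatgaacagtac
ANT008 mouse 3: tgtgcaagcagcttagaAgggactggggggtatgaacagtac
ANT008 mouse 4: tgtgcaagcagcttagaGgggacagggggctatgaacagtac
Anti-PD-1 mouse 2 and ANT008 mouse 4 shared the identical rearrangement, at 1.35% and 4.30% of productive templates. ANT008 mice 1 and 2 shared another. With 1 or 2 inserted bases, these joins lie close to the sequence of the gene segments themselves.

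The most frequent clone of anti-PD-1 mouse 2 and that of ANT008 mouse 4 encoded the same CDR3, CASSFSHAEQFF from Trbv14 and Trbj2-1. It held 5.51% of productive templates in the anti-PD-1 mouse (95% Wilson interval 5.26% to 5.77%) and 5.62% in the ANT008 mouse (5.31% to 5.94%). The joins were different, with 3 inserted bases in the first and 1 in the second.
anti-PD-1 mouse 2: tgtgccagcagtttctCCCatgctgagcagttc
ANT008 mouse 4: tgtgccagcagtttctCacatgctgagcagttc
In the other 6 mice this CDR3 was found in anti-PD-1 mouse 1 alone, as a single template of the rearrangement of anti-PD-1 mouse 2. CDR3s that differed from it at 1 residue, with the same V and J genes, held 4.03% of templates in ANT008 mouse 1 and at most 0.451% in any other mouse.

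A second large CDR3 ran across the groups. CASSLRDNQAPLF, from Trbv3 and Trbj1-5, was the CDR3 of the most frequent clone of ANT008 mouse 1 and of the clones at rank 2 in anti-PD-1 mouse 3 and rank 4 in anti-PD-1 mouse 2. It held 5.83% of productive templates in ANT008 mouse 1, 5.92% in anti-PD-1 mouse 3 and 2.93% in anti-PD-1 mouse 2. In anti-PD-1 mouse 1 and ANT008 mouse 2 it was at 0.00311% and 0.00304%, and it was not found in the other 3 mice. Its 3 frequent forms carried 6, 0 and 1 inserted bases.
anti-PD-1 mouse 2: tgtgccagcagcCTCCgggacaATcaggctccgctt
anti-PD-1 mouse 3: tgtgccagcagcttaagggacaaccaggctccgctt
ANT008 mouse 1: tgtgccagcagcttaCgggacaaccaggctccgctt
The most frequent clone of anti-PD-1 mouse 4, at 7.58% (6.99% to 8.21%), encoded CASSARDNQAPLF, which differs from it at 1 residue and uses the same gene segments.

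The shared clones named for the study's comparison are CDR3s among the 50 most frequent of at least 2 mice of a group. The anti-PD-1 mice had 8 of them and the ANT008 mice 6, and 3 CDR3s were on both lists (the Trbv16 CDR3, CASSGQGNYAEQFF and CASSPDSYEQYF). With sharing counted afresh in each of the 70 splits of the 8 mice, the difference of 2 gave p 0.657 (exact permutation, two-sided). Sharing needs 2 mice of a group, so leaving out 1 mouse can only keep or shorten its list. The anti-PD-1 list went to 5, 4 and 3 without anti-PD-1 mouse 1, 2 or 3, and stayed at 8 without mouse 4. The ANT008 list went to 2 without ANT008 mouse 1 and to 4 without mouse 3 or 4, and stayed at 6 without mouse 2. By identical nucleotides the counts were 2 and 3.

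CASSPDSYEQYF was found in all 8 mice and was among the 50 most frequent in all 4 anti-PD-1 mice and in 2 ANT008 mice. It held 1.98%, 1.25%, 0.455% and 2.83% of productive templates in anti-PD-1 mice 1 to 4, and 2.07%, 0.149%, 0.0347% and 0.486% in ANT008 mice 1 to 4. The mean was 1.63% against 0.686%, the groups overlapped, and edgeR's quasi-likelihood test over all public CDR3s gave an adjusted p of 0.918. Trbv29 and Trbj2-7 made up 80.1% of its templates, and its most frequent rearrangement differed in 7 ways over the 8 mice.

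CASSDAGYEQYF, from Trbv13-3 and Trbj2-7, was among the 50 most frequent CDR3s in 3 ANT008 mice and in 1 anti-PD-1 mouse. The shares were 0.0132%, 2.33%, 0.884% and 1.204% in ANT008 mice 1 to 4, and 1.82% and 0.127% in anti-PD-1 mice 1 and 3, with none found in anti-PD-1 mice 2 and 4. Both groups held mice above 1% and mice near or at 0. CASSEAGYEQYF and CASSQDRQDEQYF were found in ANT008 mice 1 and 3 only, at 0.578% and 0.243% for the first and 0.838% and 0.199% for the second. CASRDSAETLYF and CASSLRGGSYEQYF, on the anti-PD-1 list, were also in 3 and 4 ANT008 mice, at up to 0.714% and 0.121%. A CDR3 of Trbv1 and Trbj1-2, which is on that list at 0.267% and 0.391%, reached 0.534% in ANT008 mouse 4.

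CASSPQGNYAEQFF was found in all 4 anti-PD-1 mice and in none of the ANT008 mice. Its shares were 0.0124%, 2.65%, 0.547% and 0.0139% in anti-PD-1 mice 1 to 4, so it was a large clone in 2 mice and a trace in the other 2. Set against a floor of 3 templates in each ANT008 mouse, its mean of 0.806% was at least 51.4-fold higher, and without anti-PD-1 mouse 2 at least 12.2-fold. That floor averaged 0.0157%, and the shares in anti-PD-1 mice 1 and 4 lay below it, so the fold was carried by mice 2 and 3. The single template of anti-PD-1 mouse 4 had the nucleotides of the frequent rearrangement of anti-PD-1 mouse 2. In anti-PD-1 mouse 1, 2 of the 4 templates of this CDR3 came from a Trbv29 rearrangement, while the frequent ones of mice 2 and 3 used Trbv13-3. The presence of this CDR3 in all 4 mice thus rests on very few molecules, and not all of them share 1 V gene. Among the 2188 public CDR3s, those found in at least 4 of the 16 samples, its edgeR adjusted p was 0.476. Only 1 other CDR3 had the same pattern of presence, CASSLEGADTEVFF, at 0.0139% or less, and 0 CDR3s were in all 4 ANT008 mice and absent from the anti-PD-1 mice. The anti-PD-1 mice together held more templates, 72588 of them in mouse 3, and 27316 CDR3s against 19343. Anti-PD-1 mouse 4, with 7180 templates, was the shallowest of the 8 mice. The part of depth in these counts was not tested.

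The CDR3 that differs from it only by glycine in place of proline, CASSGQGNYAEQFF, was frequent in both groups. It held 2.86% and 0.583% in anti-PD-1 mice 2 and 3, and 0.855% and 0.631% in ANT008 mice 1 and 4. The pair is printed to show the join that differs.
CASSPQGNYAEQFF in anti-PD-1 mouse 2: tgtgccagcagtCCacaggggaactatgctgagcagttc
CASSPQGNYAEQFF in anti-PD-1 mouse 3: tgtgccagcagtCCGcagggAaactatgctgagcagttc
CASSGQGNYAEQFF in anti-PD-1 mouse 2: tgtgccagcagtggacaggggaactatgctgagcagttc
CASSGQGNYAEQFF in ANT008 mouse 1: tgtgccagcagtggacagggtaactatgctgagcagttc
All 4 used Trbv13-3 and Trbj2-1, and the printed glycine forms hold 0 inserted bases. The most frequent glycine forms of anti-PD-1 mouse 3 and ANT008 mouse 4 hold 1.

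Across the public CDR3s, edgeR called 0 of 2188 between the treatments at an adjusted p under 0.05 (0.0%), while 220 had an unadjusted p under 0.05 (10.1%) and DESeq2 called 3 (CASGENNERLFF higher with anti-PD-1, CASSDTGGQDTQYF and a longer CDR3 lower). All anti-PD-1 mice lay above all ANT008 mice for 3 CDR3s (0.137%), namely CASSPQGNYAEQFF, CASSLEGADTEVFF and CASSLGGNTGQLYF. The reverse held for 3 (0.137%), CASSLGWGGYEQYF and a pair of longer ones. CDR3s named only through DESeq2 or this order were picked once their values were known. The smallest unadjusted p values belonged to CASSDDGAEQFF, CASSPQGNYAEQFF and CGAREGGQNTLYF, each with an edgeR adjusted p of 0.476. Among the 8 mice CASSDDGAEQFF was found only with ANT008, at 0.220%, 0.0334% and 1.37% in mice 1 to 3. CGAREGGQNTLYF, from Trbv20 and Trbj2-4, was found at 0.185% in ANT008 mouse 1 and at under 0.01% in ANT008 mice 3 and 4. Counts of 2165 CDR3s were simulated at the spread of these clones (a dispersion of 3.13), with 200 changed by 4 on the log2 scale. The test found 0 of the 200. When the dispersion was lowered to 0.2, 66 of 200 CDR3s with the same change were found. Each simulation used the same dispersion throughout, so whether a change of that size was detectable for a given CDR3 was not tested.

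The single most frequent clone differed from mouse to mouse. In anti-PD-1 mice 1, 2 and 3 it used Trbv14. In anti-PD-1 mouse 1 it was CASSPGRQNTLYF with Trbj2-4, at 17.5% of productive templates (17.1% to 17.9%), the highest share of any clone in the 8 mice. In anti-PD-1 mouse 3 it was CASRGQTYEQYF with Trbj2-7, at 9.47% (9.26% to 9.68%). In the ANT008 mice it used 4 different V genes. A CDR3 of 16 residues from Trbv1 and Trbj2-2 held 8.82% in ANT008 mouse 2 (8.52% to 9.13%), and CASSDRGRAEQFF, from Trbv13-1 and Trbj2-1, held 13.8% in ANT008 mouse 3 (13.2% to 14.4%). Mean size of the most frequent clone was 10.02% ± 5.26 with anti-PD-1 and 8.50% ± 3.81 with ANT008 (SD, n = 4; two-sided exact permutation p 0.629).

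Expanded clones, those at or above 0.5% of productive templates, numbered 16, 27, 30 and 20 in anti-PD-1 mice 1 to 4 and 26, 15, 16 and 24 in ANT008 mice 1 to 4. They held 38.4% ± 11.2 of templates with anti-PD-1 and 41.0% ± 7.98 with ANT008, a difference of -2.67 percentage points (SE 6.87; exact permutation p 0.800). The ranges overlapped, and 6 CDR3s were expanded in both groups. Of the 86 CDR3s expanded in anti-PD-1 mice, 25 were detected at some level in ANT008 mice, and of the 77 expanded in ANT008 mice, 25 were detected in anti-PD-1 mice. Expanded clones of Trbv13-3, Trbv3 and Trbv16 were found in all 8 mice. Trbv3 gave 11 of the 93 expanded clones of anti-PD-1 mice and 5 of the 81 of ANT008 mice, and Trbv16 gave 6 and 8, with 1.81% and 5.44% of templates on average.

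Some low counts repeated a large clone. Of 87 expanded clones with 3 or more inserted bases, 21 were found base for base in another of the 8 mice, 19 of them at 3 templates or fewer. Within a mouse, 5 to 192 rearrangements, 0.198% to 2.43% of its unique ones, carried the CDR3 nucleotides of an expanded clone at 1% or less of its templates, many of them joined to another V gene. The part of either in the counts of rare and shared clones was not tested.

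Diversity did not separate the treatments. Shannon entropy, which rises with the number of clones and their evenness, averaged 9.36 ± 0.479 bits in anti-PD-1 mice and 9.04 ± 0.981 bits in ANT008 mice (SD, n = 4), a difference of 0.327 bits (SE 0.546; exact permutation p 0.600). Drawn to the 7180 templates of the shallowest mouse, it was 9.15, 8.38, 8.38 and 9.64 bits in anti-PD-1 mice 1 to 4 and 8.49, 9.62, 7.91 and 8.51 bits in ANT008 mice 1 to 4. The highest and second highest values came from different groups, and the lowest was ANT008 mouse 3.

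**Figure D1:**
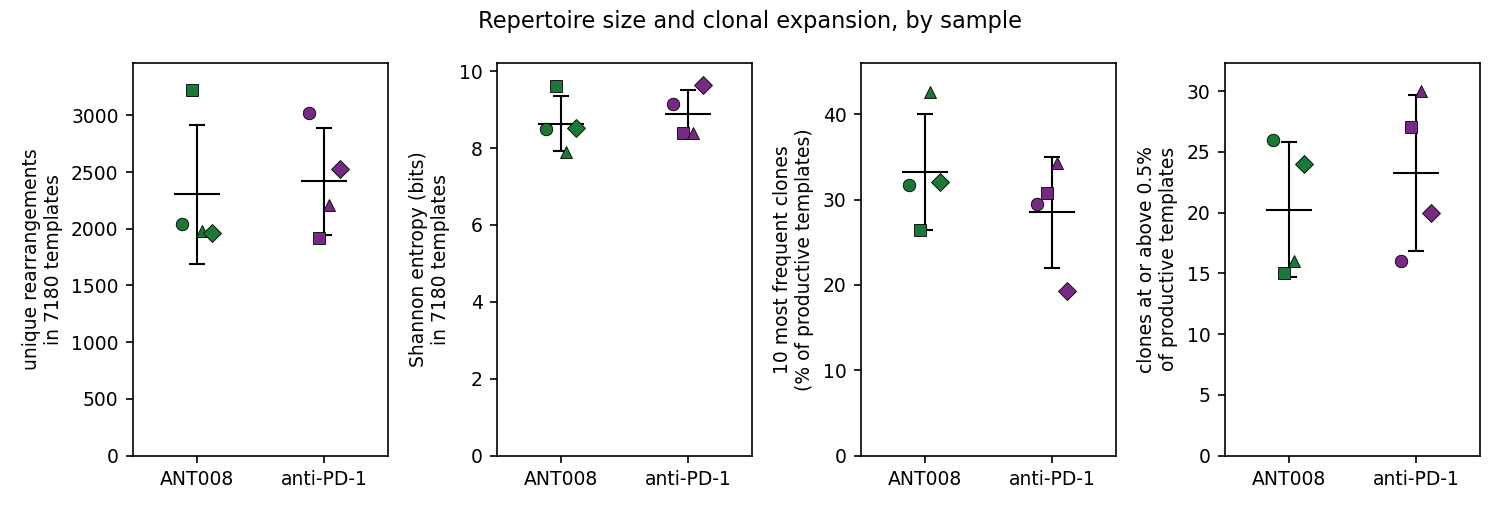
Measures per mouse for ANT008 (green) and anti-PD-1 (purple): unique rearrangements and Shannon entropy in bits, both in 7180 templates, the percent of templates in the 10 most frequent clones, and the number of clones at or above 0.5%. Circles, squares, triangles and diamonds are mice 1 to 4, bars are mean ± SD (n = 4), and the groups overlap in every panel.

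Unique rearrangements at that depth averaged 2419 ± 472 with anti-PD-1 and 2303 ± 612 with ANT008, a difference of 0.08 on the log2 scale (SE 0.22; exact permutation p 0.714). At full depth it was 0.45 (SE 0.68; exact permutation p 0.514), with productive templates themselves higher by 0.39 (SE 0.76). The 10 most frequent clones held 28.5% ± 6.46 of templates with anti-PD-1 and 33.2% ± 6.81 with ANT008, a difference of -4.70 percentage points (SE 4.69; exact permutation p 0.429). Clonality, which is 0 for equal clones and nears 1 when 1 clone dominates, differed by -0.00569 (SE 0.0433). The effective number of clones, the inverse Simpson index, was 30.2, 74.8, 50.4 and 114.8 in anti-PD-1 mice and 71.5, 69.8, 28.4 and 70.7 in ANT008 mice. Of the 8 measures, 0 had groups that did not overlap (0.0%), and each had an adjusted p of 0.886 over the 8 by the exact permutation test. With 4 mice a group that test can reach no p below 0.0286, and every difference was close to or below its standard error.

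**Figure D2:**
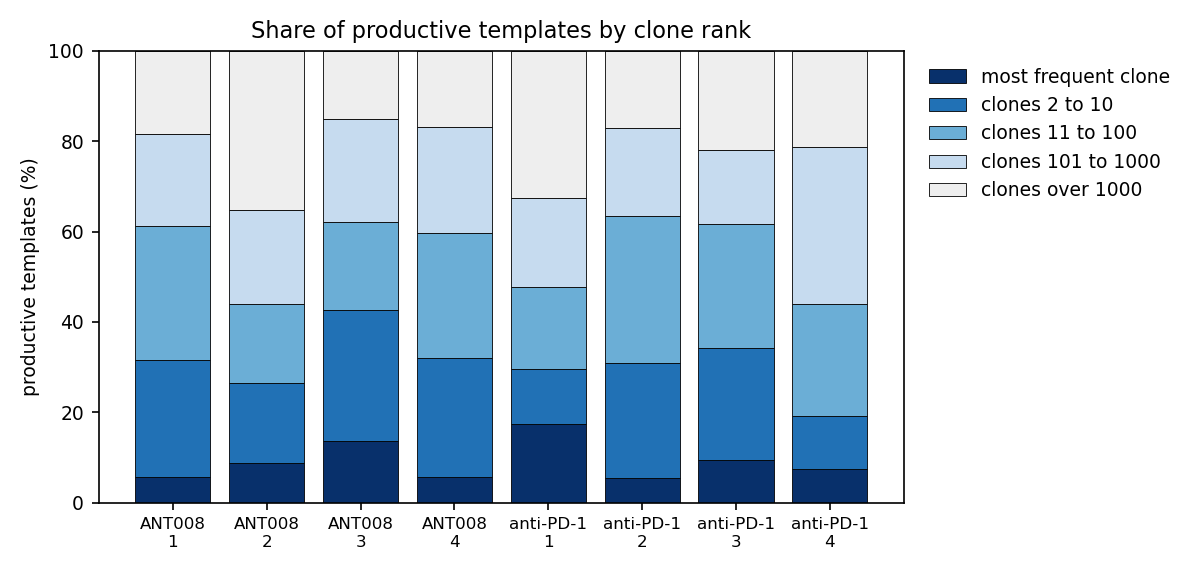
Percent of productive templates held by clones of each rank class, stacked from the most frequent clone at the bottom to clones ranked over 1000 at the top, 1 bar per mouse. The most frequent clone takes from 5.51% to 17.5%, and clones over rank 1000 take from 15.1% to 35.2%.

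CDR3 length and trimming of the V end were the features without overlap between the treatments, and neither passed adjustment. Mean length over productive templates was 13.62, 13.52, 13.54 and 13.79 residues in anti-PD-1 mice 1 to 4 and 13.79, 13.96, 13.79 and 13.87 residues in ANT008 mice 1 to 4. Every anti-PD-1 mouse was below every ANT008 mouse, though the nearest mice differed by under 0.01 residues. The means were 13.62 ± 0.124 and 13.85 ± 0.0801 residues (SD, n = 4), a difference of -0.238 (SE 0.0739). The exact permutation p was 0.0286, the smallest possible, and 0.171 after adjustment over 12 CDR3 features, so the difference was not called. Bases trimmed from the V end averaged 2.81, 2.799, 2.81 and 2.99 per template in anti-PD-1 mice and 2.15, 2.72, 2.72 and 2.21 in ANT008 mice, again without overlap (difference 0.401, SE 0.162; exact permutation p 0.0286, adjusted 0.171). These were 2 of the 12 features (16.7%).

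Neither difference was seen outside the expanded clones. Counting each unique rearrangement once, CDR3 length was 13.98 ± 0.0289 residues with anti-PD-1 and 13.97 ± 0.0725 with ANT008, and V-end trimming was 2.66 ± 0.0533 and 2.65 ± 0.0346 bases. Without expanded clones the length difference was -0.0282 residues (SE 0.0342; exact permutation p 0.429) and the trimming difference 0.0217 bases (SE 0.0629). Among expanded clones alone, weighted by templates, CDR3s averaged 13.14, 13.21, 13.27 and 13.53 residues in anti-PD-1 mice and 13.72, 14.05, 13.76 and 13.93 in ANT008 mice. Counting each expanded clone once, the means were 13.58 ± 0.230 and 13.60 ± 0.280 residues, so the gap was carried by the largest of them. V-end trimming of expanded clones, weighted by templates, averaged 3.13, 2.7995, 3.04 and 3.97 bases in anti-PD-1 mice and 1.56, 2.57, 2.85 and 1.73 in ANT008 mice, with overlap (difference 1.06; exact permutation p 0.0571). Without the most frequent clone of each mouse the length difference was -0.149 residues and the groups overlapped (exact permutation p 0.0857), and the trimming difference was 0.170 bases, also with overlap (exact permutation p 0.457). The restrictions to expanded clones and to all but the leading clone were added after the values were seen. The leading CDR3s have 12 or 13 residues in all 4 anti-PD-1 mice and in ANT008 mice 1, 3 and 4, and 16 in ANT008 mouse 2.

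**Figure D3:**
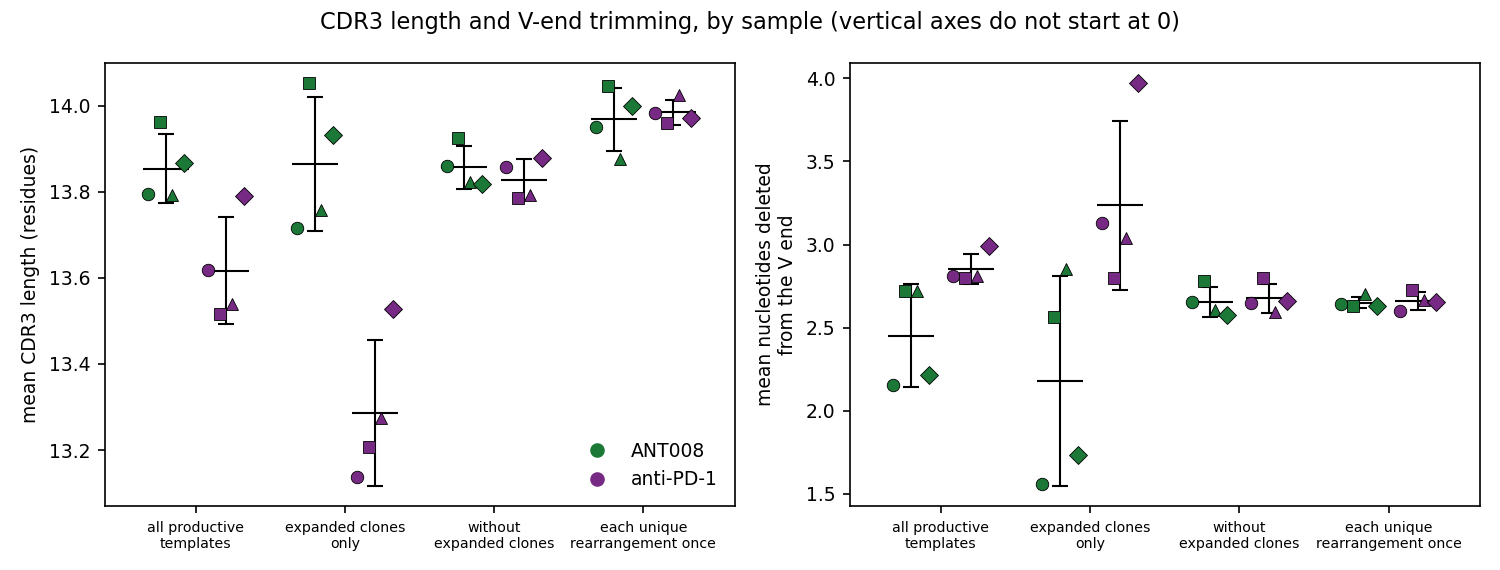
Mean CDR3 length in residues (left) and mean bases deleted from the V end (right) per mouse, over all productive templates, over expanded clones only, without expanded clones, and with each unique rearrangement counted once. ANT008 is green, anti-PD-1 purple, symbols are mice 1 to 4 as circle, square, triangle and diamond, bars are mean ± SD (n = 4), and the groups separate in length only where expanded clones are weighted by templates.

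The other 10 features overlapped between the groups. Inserted bases averaged 3.27 ± 0.468 and 3.31 ± 0.226 per template with anti-PD-1 and ANT008. CDR3s of 16 residues or more made up 8.66% ± 1.89 and 11.9% ± 4.505 of templates. Net charge of the middle residues, which face the peptide, was -0.382 ± 0.104 and -0.505 ± 0.105 (difference 0.123, SE 0.0737; exact permutation p 0.143). Paired hydrophobic residues at positions 6 and 7, a pattern known from self-reactive receptors, were in 0.977% ± 0.252 and 1.25% ± 0.664.

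Several V genes were high in mice where 1 clone made up most of the gene. In Trbv13-2, by contrast, the largest clone of a mouse was 2.99% to 22.2% of the gene. A relation of usage to clone size over all 33 V genes was not tested. In the edgeR test 0 of 33 V genes passed an adjusted p of 0.05 (0.0%), 1 had an unadjusted p under 0.05 (3.03%), DESeq2 called 0, and the groups overlapped in all 33. Trbv14 held 19.5%, 8.05%, 13.2% and 2.67% of productive templates in anti-PD-1 mice 1 to 4, and 12.3%, 1.51%, 2.57% and 9.75% in ANT008 mice 1 to 4. It was high in 3 anti-PD-1 and 2 ANT008 mice, and 1 clone gave 89.9%, 68.5% and 71.8% of it in anti-PD-1 mice 1, 2 and 3. The log2 difference was 0.73 (SE 0.57; edgeR adjusted p 0.830), and over unique rearrangements its share was 2.52% ± 0.198 and 2.59% ± 0.324.

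Trbv24 held 0.677%, 0.889%, 6.10% and 0.905% in anti-PD-1 mice 1 to 4, and 0.776%, 1.44%, 8.29% and 8.18% in ANT008 mice 1 to 4. Mice of both groups lay near 1% and others far above it. A single clone made up 86.5% of it in anti-PD-1 mouse 3, 90.4% in ANT008 mouse 3 and 61.4% in ANT008 mouse 4. The log2 difference was -1.12 (SE 0.57; edgeR adjusted p 0.830), and without anti-PD-1 mouse 3 it was -2.50 with an adjusted p of 0.000309, so that mouse decided the call. Trbv16, the V gene of the 15-residue CDR3 found in all mice, held 5.29% ± 0.418 with anti-PD-1 and 9.002% ± 4.25 with ANT008 (log2 difference -0.77, SE 0.49; edgeR adjusted p 0.830). Trbv10, the gene with the smallest p (log2 difference 3.05, SE 1.12; edgeR adjusted p 0.289), was at 0.665% in anti-PD-1 mouse 3, 98.6% of it 1 clone, and at 0.0481% or less elsewhere. That clone, WASSEPNTGQLYF, starts with W in place of the first cysteine and was counted among the expanded clones of the mouse. Trbv10 is annotated as a pseudogene in GRCm38.p6, as are Trbv22 and Trbv29, the main V gene of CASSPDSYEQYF. Trbv22 held 0.128% ± 0.142 and 0.0553% ± 0.0280 (log2 difference 1.23, SE 0.96; edgeR adjusted p 0.830).

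The most used V gene was Trbv3, at 11.5% ± 2.92 with anti-PD-1 and 8.10% ± 2.67 with ANT008 (log2 difference 0.50, SE 0.48; edgeR adjusted p 0.830). Trbv19 held 8.81% ± 2.87 and 8.59% ± 4.53, and Trbv13-3 held 8.19% ± 1.64 and 8.01% ± 2.91. Trbv13-1 held 5.34% ± 1.21 and 7.81% ± 5.89, the ANT008 mean resting on the 16.6% of mouse 3, where the leading clone was 83.1% of it. The 3 genes of the Trbv13 family together held 18.5% ± 1.08 and 21.6% ± 6.34 (difference -3.10 percentage points, SE 3.21). Trbv1, Trbv13-2 and Trbv29, the V genes that invariant natural killer T cells of mice use, together held 14.9% ± 2.51 and 14.8% ± 6.09 (difference 0.0611, SE 3.29). Those V genes serve conventional T cells too, so the share is no count of natural killer T cells. The Trbv12 family held 8.64% ± 2.72 and 6.65% ± 1.98 (difference 1.99, SE 1.68). In each family 0 genes passed the test, and the median log2 difference was -0.22, -0.11 and 0.36 beside 0.00 over all 33 genes.

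**Figure D4:**
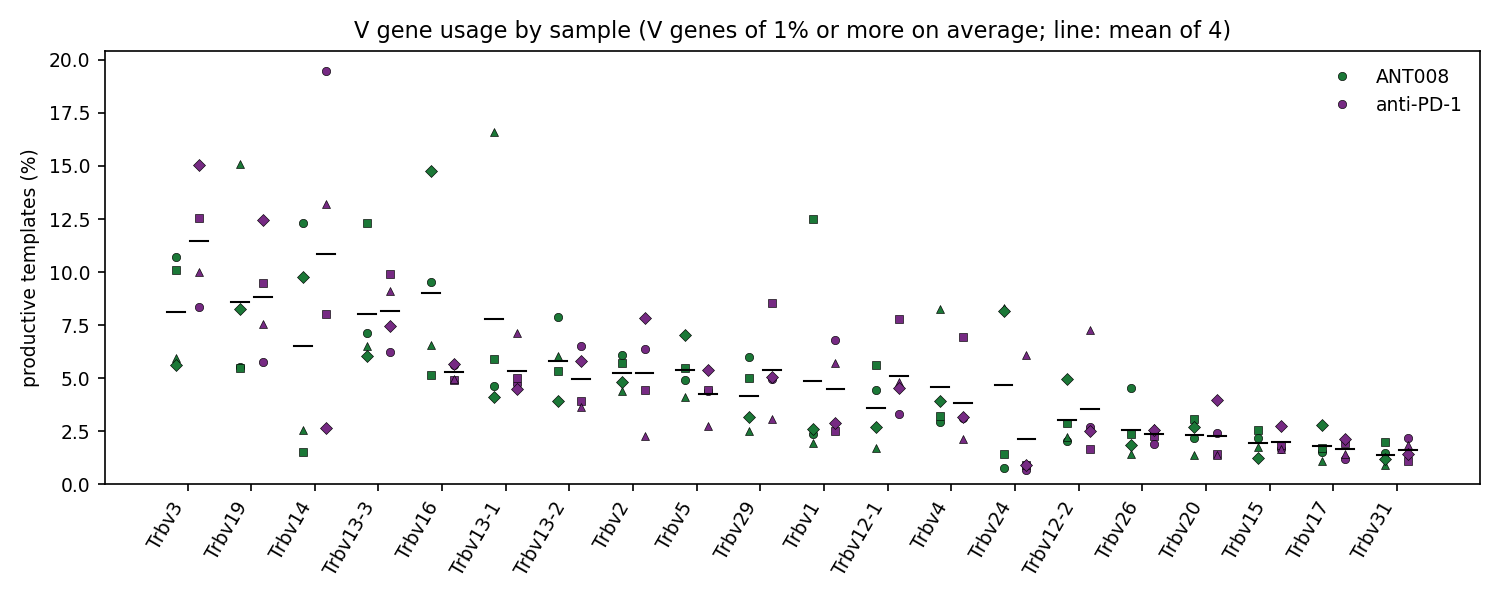
Percent of productive templates for each V gene of 1% or more on average, ordered by mean, with ANT008 in green and anti-PD-1 in purple. Symbols are mice 1 to 4 as circle, square, triangle and diamond, the black line is the mean of 4, and 1 or 2 mice of a group stand far above its others in Trbv14, Trbv13-1, Trbv1 and Trbv24.

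J gene usage gave 0 of 14 calls (0.0%) and 0 at an unadjusted p under 0.05 in the edgeR test, while DESeq2 gave 0 and 1. Trbj2-7 was the most used, at 21.6%, 33.3%, 34.5% and 28.3% in anti-PD-1 mice 1 to 4 and 29.1%, 19.8%, 17.0% and 24.0% in ANT008 mice 1 to 4 (log2 difference 0.39, SE 0.28; edgeR adjusted p 0.641). Anti-PD-1 mice 2 and 3 lay above all ANT008 mice, and mice 1 and 4 lay within their range. Trbj2-1 held 13.9% ± 3.92 and 19.99% ± 5.17 (log2 difference -0.53, SE 0.28), and Trbj2-5 held 7.37% ± 1.13 and 11.3% ± 2.68 (-0.62, SE 0.32), each with an edgeR adjusted p of 0.346. Trbj2-4 (0.93, SE 0.45; adjusted p 0.346) rested on anti-PD-1 mouse 1, at 23.1% against 4.04% to 8.05% in the other 7 mice. Over unique rearrangements Trbj2-4 held 7.998% and 7.92%, and Trbj2-7 held 20.9% in both groups. The Trbj1 cluster, which lies with Trbd1 ahead of Trbd2 and the Trbj2 cluster, held 28.7% ± 4.90 and 27.1% ± 1.66 of templates (difference 1.62 percentage points, SE 2.59).

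Pairs of V and J genes gave 0 of 246 calls (0.0%) and 24 at an unadjusted p under 0.05 (9.76%) in the edgeR test, while DESeq2 called 1. The 3 smallest p values, each with an edgeR adjusted p of 0.132, were single-clone pairs. Trbv24 with Trbj2-3 was at 5.08% in ANT008 mouse 4 and at 0.0287% to 0.203% elsewhere, Trbv14 with Trbj2-4 was at 17.6% in anti-PD-1 mouse 1 and at most 0.118% elsewhere, and Trbv24 with Trbj2-5 was at 7.57% in ANT008 mouse 3 and at most 0.282% elsewhere. All anti-PD-1 mice lay above all ANT008 mice in 5 pairs (2.03%), Trbv12-1 with Trbj2-7, Trbv13-1 with Trbj1-2 and with Trbj1-5, Trbv14 with Trbj2-2, and Trbv31 with Trbj1-5. The reverse held in 1 (0.407%), Trbv24 with Trbj2-1, and these pairs were named after their values were seen. Trbv13-1 with Trbj1-2 held 0.438%, 0.465%, 2.00% and 0.460% in anti-PD-1 mice 1 to 4 and 0.185%, 0.164%, 0.182% and 0.236% in ANT008 mice 1 to 4. The groups did not overlap, and anti-PD-1 mouse 3 stood above the rest, where 1 clone held 1.87% of productive templates. The log2 difference was 2.14 (SE 0.61), with an adjusted p of 0.132 by edgeR and 0.0245 by DESeq2, which called this pair alone.

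By CDR3 frequencies, the pairs of mice most alike crossed the treatments. The Morisita-Horn index, which is 0 for no CDR3 in common and 1 for equal frequencies, averaged 0.0415 over the 6 pairs of anti-PD-1 mice (0.0115 to 0.137) and 0.0183 over the 6 pairs of ANT008 mice (0.00388 to 0.0463). The difference of 0.0232 had an exact permutation p of 0.629. Over the 16 pairs that cross the groups it averaged 0.0577, up to 0.283 for ANT008 mouse 4 and anti-PD-1 mouse 2, the pair led by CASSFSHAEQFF. ANT008 mouse 1 had 0.219 with anti-PD-1 mouse 3 and 0.177 with anti-PD-1 mouse 2, which share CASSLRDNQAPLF with it. By identical nucleotide rearrangements the index of these pairs was far lower. It was 0.0421 for ANT008 mouse 4 and anti-PD-1 mouse 2, and for ANT008 mouse 1 it was 0.00163 with anti-PD-1 mouse 3 and 0.00672 with anti-PD-1 mouse 2. ANT008 mice 2 and 4, within the same group, had 0.00683 by that count. ANT008 mouse 3 had 0.00930 or less with every other mouse. The Jaccard index, which counts CDR3s without weight, was taken in samples drawn to equal depth as a check added after the values were seen. It was 0.0163 within anti-PD-1 (0.0152 to 0.0174) and 0.0184 within ANT008 (0.0170 to 0.0200), a difference of -0.00214 with an exact permutation p of 0.0286, opposite in sign to the weighted index. At full depth the Jaccard difference was 0.000986 (exact permutation p 0.8286), and no adjustment was made over these indices. Pairs of mice share members and are not independent.

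**Figure D5:**
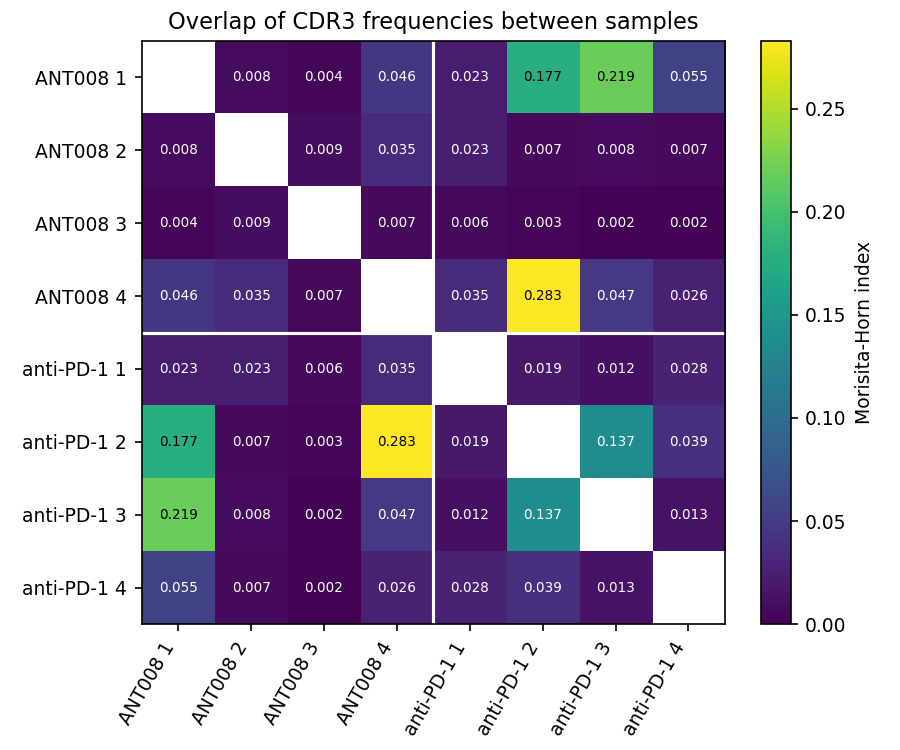
Morisita-Horn index of CDR3 frequencies for each pair of mice, coloured from 0 to 0.283 with the value in each cell, and white lines dividing ANT008 from anti-PD-1. The 3 brightest pairs join an ANT008 mouse to an anti-PD-1 mouse, and the row of ANT008 mouse 3 is near 0 throughout.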

How the data were processed

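TCRβ was surveyed by immunoSEQ (Adaptive Biotechnologies) in samples of 16 tumors, of which 4 anti-PD-1 and 4 ANT008 samples were compared. The deposited values were whole-number template counts per rearrangement, with V and J gene, CDR3, trimming and insertions, and the deposited clonality as a fraction per sample. The other deposited summary values were an entropy score and input mass. The aligner and genome build are not given in the sources used here, and read columns were empty. The labels name RNA. For this survey the study names DNA in its results and RNA extraction in its methods. The 33 V and 14 J gene names matched symbols of GRCm38.p6.

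In-frame rearrangements were analysed. Entropy equalled the deposited value to within 4.82e-07 bits. Groups came from the labels. Two-sided exact permutation tests over 70 splits were used for single values (Python 3.11.15, numpy 2.4.6, pandas 2.3.3, scipy 1.17.1, matplotlib 3.10.9). edgeR 4.0.16 in R 4.3.3 fitted V, J, V-J and public CDR3 counts over all 16 samples with library size fixed at productive templates. The SE of an edgeR log2 difference is its size over the root of F. DESeq2 1.42.0 was an alternative, as were equal depth (7180 templates), other clone definitions and thresholds, and leaving out each mouse. V-J pairs needed 10 templates in 4 samples. Intervals on shares are 95% Wilson intervals. Named V genes were the 6 most used and the 5 of smallest p, and J genes the 4 most used and the 3 of smallest p. Named V-J pairs and public CDR3s were the 3 of smallest p. Named clones were the leading clone of each mouse, CDR3s in the top 50 of 2 mice of a group, and CDR3s in all mice of 1 group and none of the other. On simulated data of 32 V genes, 4 of the 4 given a log2 change of 2 were found by edgeR, and these 4 were drawn from the genes with higher counts only. Samples and lists were chosen with earlier results of these data known. Replicate numbers in the labels were not used as pairs in the main tests. The deposited sample names carried the numbers 1, 2, 3 and 7 for anti-PD-1 mice 1 to 4. For ANT008 mice 1 to 4 they carried 2, 3, 8 and 9. The mice were separate animals.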

Additional observations from a re-analysis of the deposited data

Results flagged for a closer look

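Among 78 sets of 4 mice, 16 had 1 mouse far from the other 3 (by Dixon's test at its 95% critical value). Part of the sets were genes, V-J pairs and CDR3s named for a small p, several of them led by 1 clone of 1 mouse. The same clone can also enter more than 1 set, so the count cannot be read against a chance rate. In ANT008 mouse 3 the effective number of clones was 4.83 on the log2 scale against 6.12 to 6.16 in the other ANT008 mice, and Trbv13-1 held 16.6% against 4.13% to 5.88%. In the same mouse Trbj2-4 held 8.05% against 4.04% to 4.40%, Trbv24 with Trbj2-5 held 7.57% against at most 0.282%, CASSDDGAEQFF held 1.37% against at most 0.220%, and mean hydropathy of the middle residues was -1.46 against -1.02 to -1.01. In ANT008 mouse 2, led by a Trbv1 clone whose CDR3 holds a second cysteine, 13.2% of templates had an internal cysteine against 2.22% to 2.82%. That cysteine lies in bases that were not inserted. Trbv1 as a whole held 12.5% in this mouse against 1.96% to 2.60% in the other ANT008 mice, so the flag is not separate from Trbv1 usage. In ANT008 mouse 4 Trbv24 with Trbj2-3 held 5.08% against at most 0.203%, and in ANT008 mouse 1 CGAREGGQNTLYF held 0.185% against at most 0.00867%.

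Among anti-PD-1 mice, mouse 3 had 2.58 inserted bases per template against 3.44 to 3.59, Trbv10 at 0.665% against at most 0.0311%, and Trbv24 at 6.10% against 0.677% to 0.905%. Mouse 1 had Trbj2-4 at 23.1% against 5.11% to 6.20%, and Trbv14 with Trbj2-4 at 17.6% against at most 0.0418%. Mouse 2 had Trbj2-1 at 19.7% against 11.02% to 12.4%. Mouse 4, the shallowest, had 2.99 bases trimmed from the V end against 2.799 to 2.81.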

How the results depend on the processing

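Among the comparisons, 166 recomputed values kept direction and side of the threshold, 15 turned and 5 passed a threshold. For single genes, clones and CDR3 features the counts were 344, 48 and 4. Leaving out 1 mouse gave 0 to 1 called V genes (Trbv24 without anti-PD-1 mouse 3) and 0 to 1 V-J pairs (Trbv24 with Trbj2-3, adjusted p 0.0291 without ANT008 mouse 1 and 0.0373 without ANT008 mouse 3, by edgeR). DESeq2 called 1 V-J pair and 3 public CDR3s. Leaving out 1 mouse also turned differences near 0: clonality -0.0315 to 0.0316, effective clones -0.23 to 0.43 (log2), productive templates -0.0842 to 1.03 (log2), the expanded share -6.59 to 1.78 percentage points, shared clones -3 to 6, and Morisita-Horn -0.000491 to 0.0450. For shared clones those recounts set 3 mice against 4, and the group left with 3 can only lose shared clones. Identical nucleotides gave -1 shared clone and -0.000534 for overlap. At equal depth, as checks added after the values were seen, clones shared at any rank differed by -19.43 and Jaccard by -0.00214. The cause was not tested.

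Counting unique rearrangements turned CDR3 length (0.0170 residues), CDR3s of 12 residues or fewer (-0.400 points) and of 16 or more (0.695), and on the log2 scale Trbj2-1 (0.0286), Trbv13-1 (0.17), Trbv13-3 (-0.0069), Trbv14 (-0.0281), Trbv19 (-0.0801), Trbv22 (-0.33), Trbv3 (-0.0695) and Trbv24 with Trbj2-5 (0.0483). Unique counting and leaving out expanded clones turned hydropathy (0.0140, 0.0153), hydrophobic residues 6 and 7 (0.159, 0.140), inserted bases (0.0161, 0.0132), internal cysteine (0.122, 0.881) and CDR3s with no insertion (-0.303, -0.866), and the second turned net charge (-0.00830). TMM turned Trbv13-3 (-0.10) and Trbv19 (-0.20). Leaving out 1 mouse gave -0.595 to 2.803 points for CDR3s of 12 residues or fewer, -0.174 to 7.17e-05 for hydropathy, -0.483 to 0.00457 for residues 6 and 7, -0.144 to 0.195 for inserted bases, -1.47 to 2.18 for internal cysteine and -0.228 to 0.0581 for J trimming. On the log2 scale it gave -0.41 to 3.82 for Trbv10, -0.76 to 0.13 for Trbv13-1, -0.0818 to 0.32 for Trbv13-3, -0.18 to 0.46 for Trbv19, -0.0186 to 1.61 for Trbv22 and -0.85 to 6.55 for Trbv14 with Trbj2-4.

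With the replicate number as a block, 0 V genes, J genes, V-J pairs and public CDR3s were called, the entropy difference stayed 0.327 bits and no other call changed. Unadjusted p values under 0.05 fell from 24 to 9 for V-J pairs and from 220 to 37 for public CDR3s. Deviations of same-numbered mice over 30 V genes correlated at 0.44, -0.037, 0.23 and -0.37, and 1 of 4 anti-PD-1 mice correlated best with its own number. CDR3 length under the block had p 0.125, the smallest its exact permutation of signs allows. The 7180 templates of the shallowest mouse limit what can be seen of rare clones.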
